A study of Rattus norvegicus with 6 samples.

Results

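Matricellular proteins are secreted into the extracellular matrix and act there mainly on cells and on other matrix molecules rather than as structural fibres. The genes described here are Spp1 (osteopontin), Postn (periostin), Tnc (tenascin C), Sparc, Sparcl1, Thbs1 and Thbs2 (thrombospondins), Tgfbi, Smoc2 and Fn1 (fibronectin, a structural glycoprotein to which several of the others bind). They were chosen by name, as every probe set that the array annotation assigns to 1 of these symbols and to no other. Of the 10 genes, 9 had such a probe set, with 12 probe sets among the 31042 tested, and Thbs1 was not analysed here.

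Gene expression was compared between ShSuz12 and control populations of IEC-6, a non-tumorigenic rat line with features of undifferentiated small intestinal crypt cells. SUZ12 is a core subunit of Polycomb repressive complex PRC2, which trimethylates histone H3 at lysine K27 and is known for holding developmental genes silent. ShSuz12 cells carried a lentiviral short hairpin RNA against Suz12 and control cells a scrambled hairpin, and both were grown in medium with 5% fetal bovine serum. Cells were infected for 6 h, the efficiency of infection was estimated at 25%, and the infected cells were selected as populations with puromycin. Each group had 3 arrays, with RNA from 3 independent experiments. The study describes 1 line per group and does not say that infection or selection was repeated, so p-values measure the spread between experiments. A single hairpin against Suz12 was used, so an effect of its sequence on other transcripts cannot be told apart from one of SUZ12 loss. Its target sequence, shown because it defines the ShSuz12 group, was:
Suz12 hairpin target: gctgacaatcaaatgaatcat

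The arrays gave 1 log2 value for each probe set. Array medians lay between 6.26 and 6.27 in ShSuz12 cells and between 6.15 and 6.17 in control cells. Correlations across probe sets were 0.997 to 0.998 between arrays of a group and 0.979 to 0.980 between groups. Suz12 itself read 5.82, 5.77 and 5.91 in ShSuz12 cells, against 8.45, 8.55 and 8.77 in control cells, a log2 fold change of -2.76 ± 0.09 (SE, adjusted p = 2.78e-07). Ezh2, the methyltransferase of the complex, changed by -0.61, -0.61 and -0.11 at its 3 probe sets, and Eed, its other core partner, by -0.11. A probe set is called here where limma gave an adjusted p under 0.05 over all 31042 probe sets and the change was at least 2-fold.

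Osteopontin, periostin, tenascin C and the thrombospondins are scarce in most resting adult tissues and are known for their appearance in development, wound repair and tumour stroma. They bind integrins, CD44 and growth factor receptors and alter adhesion, migration and collagen assembly. SPARC and its relatives carry a collagen- and calcium-binding domain, and fibronectin is laid down by most adherent cells.

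PRC2 is known to gather at CpG-rich promoters in mammals, so the CG content of the members' promoters was read from RefSeq (GRCr8), which gave the 250 bases before the start of 6 measured members and none for Thbs2, Smoc2 and Fn1. The 6 sequences are shown 5′ to 3′, with each CG dinucleotide in capitals, to set the members that moved beside those that did not:
Spp1, chr14:5619805-5620054, minus strand: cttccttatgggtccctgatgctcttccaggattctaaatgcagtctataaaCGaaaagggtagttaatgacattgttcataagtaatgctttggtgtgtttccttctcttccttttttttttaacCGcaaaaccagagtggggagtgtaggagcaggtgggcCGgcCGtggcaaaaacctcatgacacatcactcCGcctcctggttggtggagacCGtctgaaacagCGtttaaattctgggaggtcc
Tnc, chr5:82476132-82476381, minus strand: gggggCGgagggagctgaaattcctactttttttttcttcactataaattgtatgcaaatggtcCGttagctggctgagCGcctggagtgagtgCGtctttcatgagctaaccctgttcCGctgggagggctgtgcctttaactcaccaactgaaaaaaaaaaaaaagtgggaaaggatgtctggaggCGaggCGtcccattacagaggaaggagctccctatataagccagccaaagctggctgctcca
Postn, chr2:140677811-140678060, plus strand: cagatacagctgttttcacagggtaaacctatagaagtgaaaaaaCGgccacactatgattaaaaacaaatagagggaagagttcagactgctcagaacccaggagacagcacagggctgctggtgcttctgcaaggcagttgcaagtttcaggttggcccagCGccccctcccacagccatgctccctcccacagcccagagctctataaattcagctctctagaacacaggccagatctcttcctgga
Tgfbi, chr17:7990114-7990363, minus strand: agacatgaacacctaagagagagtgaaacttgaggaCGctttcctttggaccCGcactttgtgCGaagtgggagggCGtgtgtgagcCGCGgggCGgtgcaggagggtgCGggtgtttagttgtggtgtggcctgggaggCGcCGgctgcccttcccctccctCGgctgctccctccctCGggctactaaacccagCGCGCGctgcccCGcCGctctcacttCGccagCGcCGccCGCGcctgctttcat
Sparc, chr10:40038817-40039066, minus strand: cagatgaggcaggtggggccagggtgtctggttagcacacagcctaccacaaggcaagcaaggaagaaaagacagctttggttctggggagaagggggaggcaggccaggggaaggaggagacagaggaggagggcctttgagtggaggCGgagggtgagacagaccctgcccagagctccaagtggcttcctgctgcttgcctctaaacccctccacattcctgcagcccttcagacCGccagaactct
Sparcl1, chr14:5937234-5937483, plus strand: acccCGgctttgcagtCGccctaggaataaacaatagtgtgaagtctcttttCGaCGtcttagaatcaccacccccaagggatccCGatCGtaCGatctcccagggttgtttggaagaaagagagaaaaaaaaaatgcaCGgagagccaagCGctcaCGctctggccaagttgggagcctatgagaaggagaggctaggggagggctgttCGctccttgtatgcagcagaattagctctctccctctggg

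Counts of CG were 7 in Spp1, 7 in Tnc, 2 in Postn and 22 in Tgfbi, the members with large rises described next. Sparc had 2 and Sparcl1 11, against a median of 5.0 over 33469 rat promoters of the same length. Tgfbi was the CG-rich sequence of the set, since 86.3% of all promoters had fewer CG dinucleotides. GC content was 46.8% in Spp1, 49.6% in Tnc, 50.8% in Postn, 65.6% in Tgfbi and 52.4% in Sparcl1, with a median of 51.2% over all. Sparc, with 150 G or C among its 250 bases, was second to Tgfbi with 164. The sequences read for risen members therefore ran from CG-poor to CG-rich, with none available for Thbs2 and Smoc2. Only the 250 bases before the start used were read, and binding of PRC2 to these genes was not tested. The letters TATAAA, searched on both strands, were in the Spp1, Tnc and Postn sequences and in 12.9% of all promoters. In Postn they began 44 bases before the start, in Spp1 204 and in Tnc 208 bases before it. Variants of these letters, such as the tatataag near the end of the Tnc sequence, were not counted. The AP-1 letters TGANTCA (6.34% of all promoters) and the E-box letters CACGTG (5.59%) were in none of the 6, and the RUNX letters TGTGGT (14.5%) were in Sparc and Tgfbi. None of these motifs contains another, and a match is a description of the sequence only. The starts used lie inside the outer limit of the annotated gene by 891 bases in Spp1, 287 in Postn, 121 in Tgfbi and 66 in Tnc, so the annotated gene reaches upstream of them. Which starts these cells use was not measured.

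Of the 12 probe sets, 6 were called higher in ShSuz12 cells and 0 lower, and they belonged to Spp1, Tnc, Postn, Tgfbi, Thbs2 and Smoc2. Over the whole array 3.10% of probe sets were called higher and 0.396% lower. Without the fold threshold, 8 of the 12 were higher and 1 lower at an adjusted p under 0.05, where 14.8% of all probe sets were higher and 19.5% lower. All ShSuz12 arrays lay above all control arrays at 10 of the 12 (19.4% of all probe sets) and below them at 1 (28.1%), and the groups overlapped at the remaining 1. SDs within a group of 3 arrays were 0.02 to 0.22. When each gene was taken by its brightest probe set, 5 of 9 genes were called higher and 0 lower, against 3.82% and 0.422% of 14217 genes. By any of its probe sets, 6 of 9 were called higher, against 4.13% of genes. The median log2 fold change of the 9 genes was 1.81, and that of all genes was -0.05. A bulk array cannot tell more cells of a kind from more RNA per cell.

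**Figure D1:**
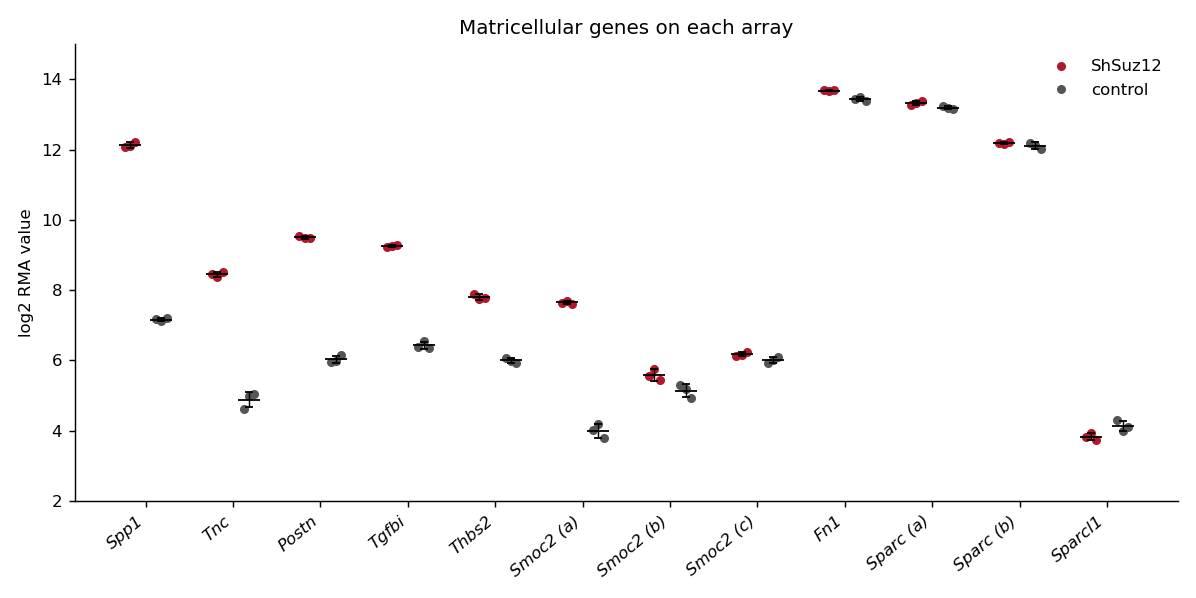
Log2 RMA value (vertical axis) of each of the 12 matricellular probe sets in 3 ShSuz12 arrays (red, left) and 3 control arrays (grey, right), with the mean and SD of each group as bars. Letters separate probe sets of 1 gene: Smoc2 (a) is 1392965_a_at, (b) 1394310_at and (c) 1385242_at, Sparc (a) is 1367563_at and (b) 1367562_at. The groups stand well apart for Spp1, Tnc, Postn, Tgfbi, Thbs2 and Smoc2 (a), and Fn1 and both Sparc probe sets lie above 12 on every array.

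Osteopontin had the largest change of the set. Spp1 (1367581_a_at), which encodes a secreted phosphoprotein that binds αv integrins and CD44, read 12.08, 12.12 and 12.23 in ShSuz12 cells, against 7.18, 7.12 and 7.19 in control cells. Every ShSuz12 array stood far above every control array, and the spread within each group was small. The log2 fold change was 4.98 ± 0.06 (SE, 95% interval 4.84 to 5.12, adjusted p = 6.46e-09), or 31.6-fold, the 13th highest of the 31042 probe sets. Its values lay above 98.9% of the probe sets of an array in ShSuz12 cells and above 61.3% in control cells.

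Periostin and TGFBI are related secreted proteins built from repeated fasciclin domains. Postn (1373911_at), whose product binds αv integrins and aids collagen crosslinking, read 9.56, 9.47 and 9.48 in ShSuz12 cells, against 5.96, 5.97 and 6.15 in control cells. Tgfbi (1371913_at), named for its induction by TGF-beta, read 9.23, 9.26 and 9.27 in ShSuz12 cells, against 6.39, 6.54 and 6.35 in control cells. Both relatives were therefore high on every ShSuz12 array and near the array median on every control array. Postn rose 11.2-fold (log2 fold change 3.48 ± 0.07, SE, adjusted p = 2.26e-08). Tgfbi rose 7.08-fold (2.82 ± 0.06, SE, adjusted p = 4.23e-08). The within-array difference of log2 values, Postn minus Tgfbi, averaged 0.25 ± 0.07 in ShSuz12 cells and -0.41 ± 0.19 in control cells (SD, n = 3 each), so the Postn probe set gained 0.65 more than the Tgfbi probe set. Every ShSuz12 array had a larger difference than every control array. The exact two-sided permutation p was 0.10, which is the smallest that 3 against 3 arrays allow, and 0.10 after adjustment over the 2 pairs compared.

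Tenascin C is a large glycoprotein that counters firm adhesion to fibronectin and binds integrins and TLR4. Tnc (1373401_at) read 8.47, 8.37 and 8.51 in ShSuz12 cells, against 4.62, 4.99 and 5.03 in control cells. The control arrays lay in the lower part of the array's values, at the 32.6 percentile, and the ShSuz12 arrays at the 77.2 percentile. The log2 fold change was 3.57 ± 0.11 (SE, adjusted p = 2.03e-07), or 11.9-fold. One control array was lower than the other two, which widened that group's spread without bringing the groups near each other.

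Thrombospondin 2 is an inhibitor of angiogenesis that binds CD36 and CD47 and helps clear MMP2 from the matrix. Thbs2 (1385751_at) read 7.90, 7.74 and 7.79 in ShSuz12 cells, against 6.08, 5.98 and 5.93 in control cells. The groups did not overlap, and the rise of 3.51-fold (log2 fold change 1.81 ± 0.07, SE, adjusted p = 5.37e-07) was the smallest among the 6 called probe sets.

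The SPARC family split by member and, within Smoc2, by probe set. SMOC2 is a modular relative of SPARC that alters growth factor signalling and, in mouse intestine, is a gene of crypt stem cells. Smoc2 at 1392965_a_at read 7.64, 7.69 and 7.61 in ShSuz12 cells, against 4.03, 4.18 and 3.78 in control cells. Its control values were among the low values of the array, at the 15.9 percentile, while its ShSuz12 values reached the 67.2 percentile. That is 12.6-fold (log2 fold change 3.65 ± 0.10, SE, adjusted p = 1.01e-07). The other two Smoc2 probe sets were not called. At 1394310_at the values were 5.55, 5.75 and 5.43 in ShSuz12 cells, against 5.29, 5.17 and 4.93 in control cells (0.44 ± 0.11, SE, adjusted p = 0.0163). At 1385242_at, the brightest of the 3 on average, they were 6.13, 6.14 and 6.24 in ShSuz12 cells, against 5.92, 6.01 and 6.08 in control cells (0.17 ± 0.06, SE, adjusted p = 0.0764). The groups did not overlap at either, but the changes were small beside that of the first probe set. Where on the transcript each probe set lies was not given in the sources used here, so the rise of Smoc2 rests on 1 of 3 probe sets.

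SPARC itself, an abundant collagen-binding glycoprotein of fibroblasts and bone, was among the brightest genes in both groups. Sparc read 13.28, 13.32 and 13.38 at 1367563_at in ShSuz12 cells, against 13.23, 13.19 and 13.16 in control cells (0.13 ± 0.05, SE, adjusted p = 0.0944). At 1367562_at it read 12.18, 12.16 and 12.21 in ShSuz12 cells, against 12.19, 12.15 and 12.02 in control cells, where the groups overlapped (0.07 ± 0.06, SE, adjusted p = 0.446). When each array's median was subtracted, the second probe set's change was -0.03, so no direction can be given for it. The highest value on any array was 14.3, so 1367563_at lay near the top of the range. The other probe set, 1367562_at, lay lower, though above 98.9% of probe sets in ShSuz12 cells and 98.8% in control cells.

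Sparcl1 (hevin), the closest relative of Sparc and known from vessels and brain, lay near the low end of the array in both groups. Sparcl1 (1386865_at) read 3.82, 3.93 and 3.72 in ShSuz12 cells, against 4.30, 4.00 and 4.10 in control cells. It was the member whose ShSuz12 arrays all lay below the control arrays, by -0.31 ± 0.09 (SE, adjusted p = 0.0295), short of 2-fold. The within-array difference, Sparcl1 minus Sparc, was -9.51 ± 0.13 in ShSuz12 cells and -9.07 ± 0.13 in control cells (SD, n = 3 each), a gap of -0.44 with an exact two-sided permutation p of 0.10, again the smallest possible and 0.10 after adjustment. Sparcl1 lay at the 12.4 percentile in ShSuz12 cells and the 18.7 percentile in control cells, not clearly above background, and Sparc near the top of the range, so the size of this gap is not an exact difference in change.

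Fibronectin was near the top of the range, at the 99.8 percentile in ShSuz12 cells and the 99.7 percentile in control cells. Fn1 (1370234_at) read 13.71, 13.66 and 13.69 in ShSuz12 cells, against 13.44, 13.49 and 13.38 in control cells. All ShSuz12 arrays were higher, by 0.25 ± 0.05 (SE, adjusted p = 0.00909), which is short of 2-fold. After subtraction of array medians the change was 0.15 with an adjusted p of 0.0669.

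**Figure D2:**
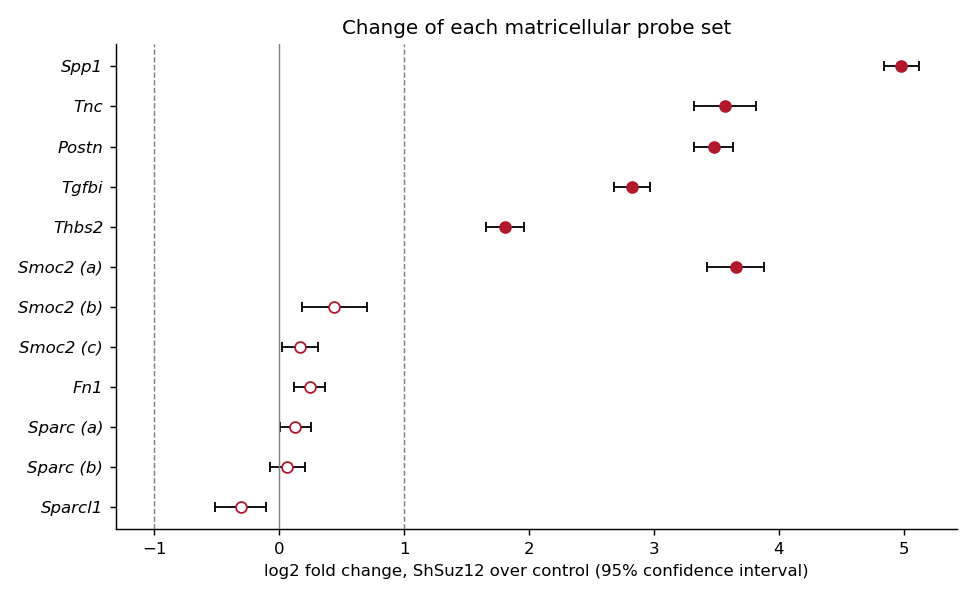
Log2 fold change of ShSuz12 over control (horizontal axis) for each matricellular probe set, with its 95% confidence interval from limma. Filled points were called, open points were not, and dashed lines mark 2-fold in either direction. Spp1 stands highest at 4.98, followed by Smoc2 (a), Tnc, Postn, Tgfbi and Thbs2, while the other 6 lie between -0.31 and 0.44.

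Other secreted matrix modulators were read next, as the fibulin, CCN, EMILIN, thrombospondin, tenascin and SPARC families, the bone and tooth phosphoproteins and related proteins. Of 36 measured genes of 40 listed, 7 were called higher and 0 lower, with a median log2 fold change of 0.17, beside 3.82% higher and a median of -0.05 over all genes. In this and the following lists no gene reached 2-fold lower by its brightest probe set, so the counts of 0 lower hold for any test at that threshold. Fbln1 and Fbln5, fibulins of elastic fibres and basement membranes, changed by 2.21 ± 0.08 and 1.63 ± 0.08 (SE, adjusted p = 4.26e-07 and 2.83e-06). A dimmer Fbln1 probe set changed by 0.07 (adjusted p = 0.418). Ccn3, a CCN family growth regulator, changed by 1.95 ± 0.06 (SE, adjusted p = 2.58e-07), and Mgp, an inhibitor of calcification, by 1.69 ± 0.05 (SE, adjusted p = 2.57e-07). Emilin1, Edil3 and Efemp1 were called as well, and Edil3 (1.05) and Efemp1 (1.01) lay close to the threshold. Both lost the call with array medians subtracted (0.95 and 0.90) and without ShSuz12 replicate 3 (0.94 and 0.99), and Efemp1 also without ShSuz12 replicate 1. The CCN family did not move as 1 group: Ccn2 was near the top of the array in both groups and changed by -0.05 (adjusted p = 0.493), and Ccn1 was lower by -0.88 (adjusted p = 9.19e-05), short of the fold threshold. The other thrombospondins listed, Thbs3, Thbs4 and Comp, changed by 0.18, 0.37 and -0.78, and none was called. Thbs4 was dim, at the 27.9 percentile in ShSuz12 cells and the 21.5 percentile in control cells. Of relatives of Tnc and Smoc2, Tnr changed by -0.04, Tnn by 0.75 and Smoc1 by -0.04 and -0.23, and none was called. Tnr and Tnn lay under the 25th percentile in both groups.

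Of 26 measured receptor genes of 29 listed, 5 were called higher (3.82% of all genes) and 0 lower, with a median of 0.16. Itgb3, the integrin β chain that pairs with αv to bind osteopontin, periostin and fibronectin, read 8.88, 8.83 and 8.91 in ShSuz12 cells, against 6.05, 6.41 and 6.35 in control cells. All ShSuz12 arrays were well above the control arrays (2.60 ± 0.09, SE, adjusted p = 5.3e-07). Its partner Itgav had no called probe set, with changes of 0.29, -0.11 and -0.20 at its 3 probe sets. Itgb1, the common integrin β chain, changed by -0.19 and -0.17. Cacna2d1, a calcium channel subunit that binds thrombospondins, changed by 3.06 ± 0.11 (SE, adjusted p = 4.69e-07), with control values at the 19.0 percentile. Tlr4, an innate immune receptor that tenascin C can engage, changed by 2.39 ± 0.11 (SE, adjusted p = 2.21e-06), with control values at the 23.3 percentile. Itga6, a laminin receptor chain, changed by 1.95, 1.66 and 1.66 at 3 called probe sets and by -0.05 at the dimmest. Egfr, a growth factor receptor, changed by 1.57 and 1.64 at 2 called probe sets and by -0.12 at the dimmest. Cd44, the osteopontin and hyaluronan receptor, was lower by -0.72 and -0.67 at its 2 probe sets (adjusted p = 3.82e-05 and 0.000407), short of 2-fold. For the thrombospondin receptors, Cd47 changed by -0.13 and -0.20, and Cd36 by -0.18 at the very bottom of the array.

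Enzymes and inhibitors that process or crosslink these proteins gave 4 called higher (3.82% of all genes) and 0 lower of 27 measured among 30, with a median of 0.09. Serpine2, a serine protease inhibitor, read 9.02, 8.98 and 8.94 in ShSuz12 cells, against 3.82, 4.50 and 4.45 in control cells (4.72 ± 0.16, SE, adjusted p = 4.28e-07). One control array was lower than the other two, yet all 3 were far below the ShSuz12 arrays, at a mean percentile of 21.1. Mmp2, a gelatinase, changed by 2.56 at the brighter of its probe sets, whereas the dimmer gave -0.18. Enpp1, which makes the mineralisation inhibitor pyrophosphate, changed by 2.29, and Adamts1, a protease of proteoglycans, by 1.72. Lox, the collagen crosslinker, was near the top of the array in both groups and changed by 0.06 and 0.14. Bmp1, the procollagen protease, changed by 0.09 and 0.29.

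TGF-beta is known to raise several of the members, so its ligands, latency proteins and signal genes were listed too. None of 22 measured genes of 24 was called in either direction by its brightest probe set, with a median of -0.09. Over all genes 3.82% were called higher and 0.422% lower, so 0 of 22 lies near those shares. At an adjusted p under 0.05 alone, 6 were higher and 5 lower, beside 14.8% and 19.5% of all probe sets. Tgfb1 read 8.93, 9.00 and 8.88 in ShSuz12 cells, against 8.25, 8.07 and 8.16 in control cells (0.78 ± 0.06, SE, adjusted p = 5.42e-05). The groups did not overlap, but the rise stayed short of 2-fold. Tgfb2 changed by -0.38 and -0.41 at its 2 probe sets, and Tgfb3 by 0.19. Smurf2, a ubiquitin ligase that limits TGF-beta signalling, changed by -0.90 at the brighter of its probe sets. The dimmer gave -1.05 and was called lower.

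**Figure D3:**
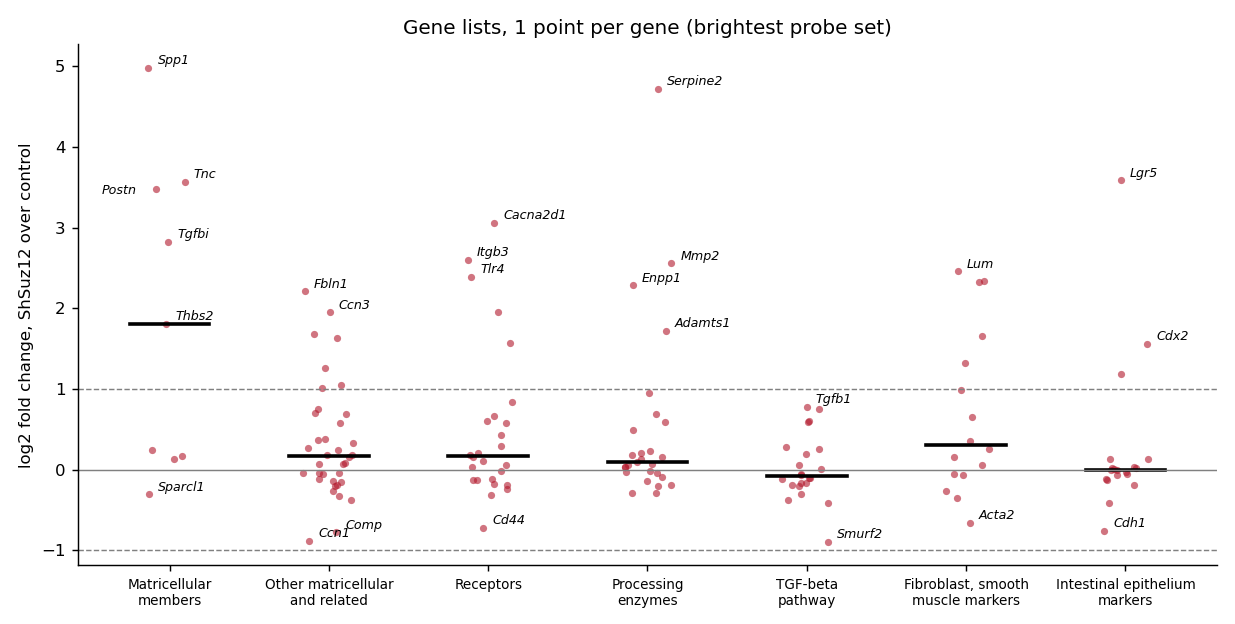
Log2 fold change of ShSuz12 over control (vertical axis) of each measured gene, by its brightest probe set, in the matricellular set and 6 related or marker lists. Black bars are list medians and dashed lines mark 2-fold in either direction. The median is 1.81 for the matricellular set, where Smoc2 is plotted at 0.17, and between -0.09 and 0.30 for the other lists.

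Markers of cell types that make such proteins were read beside these results. Of 16 measured fibroblast and smooth muscle markers, 5 were called higher (3.82% of all genes) and 0 lower, namely Lum, Col1a2, Col3a1, Pdgfrb and Dcn (2.46, 2.34, 2.33, 1.66 and 1.32). With each gene taken by the mean of its probe sets, 4 were called higher. Log2 values of the 16 markers, by the brightest probe set, summed to 138.2 to 138.5 on ShSuz12 arrays and to 126.9 to 127.5 on control arrays. Vim and Col1a1 were above the 99 percentile of the array in both groups, and Acta2, the smooth muscle actin, changed by -0.66. The part of these markers in the rise of the matricellular genes was not tested. Leukocyte markers, 0 called of 14, summed to 65.0 to 66.0 on ShSuz12 arrays and to 66.9 to 67.4 on control arrays, with Ptprc near the bottom in both. Endothelial markers, 0 called of 10, summed to 48.5 to 49.8 on ShSuz12 arrays and to 47.3 to 48.0 on control arrays. Of 19 intestinal epithelium markers, Lgr5, Cdx2 and Krt19 were called higher (3.59, 1.56 and 1.19, beside 3.82% of all genes) and 0 were called lower. They summed to 106.4 to 107.7 on ShSuz12 arrays and to 101.4 to 102.2 on control arrays, over all 19. The mean percentile of the 19 was 37.8 in ShSuz12 cells and 34.2 in control cells, and 7 lay under the 25th percentile in both. For the fibroblast and smooth muscle markers it was 67.1 and 61.4. The epithelial cadherin Cdh1 was bright in both groups and changed by -0.76, whereas Epcam and Vil1 were low in both. These markers were picked after their values were seen, and how epithelial the line is was not tested. None of 10 reference genes was called.

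Gene order was examined because several members lie close together in the rat genome. These segments were chosen after the values were seen, and order was taken from GRCr8. On chromosome 14, Spp1 heads the cluster of secreted calcium-binding phosphoproteins of bone and tooth, followed by Mepe, Ibsp, Dmp1 and Dspp and, next to them, by Sparcl1. The 5 genes from Mepe to Sparcl1 had 7 probe sets with changes of -0.31 to 0.18 and with values between the 2.90 and 35.4 percentiles of the arrays. Pkd2, on the other side of Spp1, changed by 0.24 and 0.14. The rise of Spp1 was thus not seen at either measured neighbour. On chromosome 1, Dact2, a regulator of Wnt signalling, Smoc2 and Thbs2 are consecutive protein-coding genes. Dact2 was called higher (1.86 ± 0.10, SE), as were Thbs2 and the first Smoc2 probe set. Wdr27, the next gene, was not analysed here, and C1h6orf120 after it changed by -0.05 and -0.22.

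**Figure D4:**
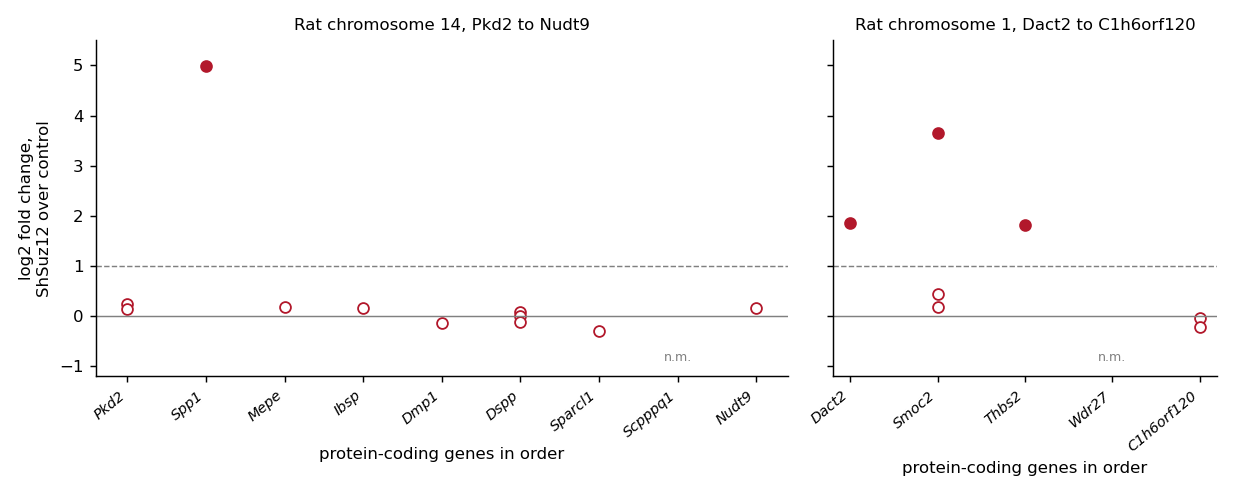
Log2 fold change of ShSuz12 over control (vertical axis) of each probe set of the protein-coding genes around Spp1 and Sparcl1 (left) and around Smoc2 and Thbs2 (right), in genome order. Filled points were called, open points were not, the dashed line marks 2-fold and n.m. marks a gene not measured here. Spp1 stands alone at 4.98, whereas Dact2, Smoc2 and Thbs2 each have a filled point.

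The genes whose 6 array values lay nearest each called member, once the mean of the control arrays was subtracted, were also listed, with their Euclidean distance on the log2 scale over 6 arrays. Nearest Spp1 were the transcription factor Maf (0.29), Bex4 (0.35) and the protease inhibitor A2m (0.35). Nearest Postn were Gbp7 (0.24), the chemokine Ccl20 (0.27) and Kctd12 (0.27). For Tgfbi they were the glypican Gpc3 (0.09), Mlf1 (0.18) and the complement protease C1s (0.21), and for Thbs2 they were Sh3bp5 (0.12), the transcription factor Runx1 (0.13) and Cryl1 (0.14). Tnc lay nearest Adgrg1 (0.23), the collagen-binding proteoglycan Fmod (0.31) and the stem cell receptor Lgr5 (0.35). Smoc2 at its called probe set, 1392965_a_at, lay nearest Fmod (0.27), Pcdh9 (0.31) and Prph (0.34). Fmod was thus near 2 of the called member probe sets. With 3 arrays a group, these distances mostly reflect a similar size of change.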

How the data were processed

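RNA from 3 independent experiments each with ShSuz12 and control cells was hybridised to Affymetrix rat genome arrays. The deposited log2 values were made by the authors with RMA in FlexArray, that is background correction, normalization between arrays and 1 summarised log2 value per probe set. Scanner files were not used here, and scan batches are not given in the sources used here. After 57 control probe sets were left out, 31042 probe sets were fitted with limma 3.58.1 in R 4.3.3 (lmFit and eBayes, two-sided), with Benjamini-Hochberg adjustment over all of them. The number of arrays limits the precision. The steps were tested on simulated data.

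Probe sets were named by the platform annotation: 20826 had 1 symbol, 436 had several and 9780 were unnamed. A gene was taken by its probe set with the highest mean. The members and lists were chosen with earlier results of these data known. Named were all member probe sets, Suz12, Ezh2 and Eed, up to 4 called genes per list with the largest change, 9 receptors and TGF-beta ligands whatever they did, and 3 nearest genes per called member; other list genes and neighbours were chosen after their values were seen.

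Same-numbered arrays deviated together with correlations of 0.02, -0.04 and -0.06, so the numbers were not taken as pairs. Alternatives were other tests, filters, scalings, thresholds, a replicate block and leaving out each array.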

Additional observations from a re-analysis of the deposited data

How the results depend on the processing

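The 6 called matricellular probe sets kept their call under all 17 alternatives that gave each a value. The settings with no fold threshold or with 1.5-fold are laxer than the main one, so no call could be lost there. The filters kept a probe set that passed in either group, so high ShSuz12 values alone could carry it through. Spp1 ranged between 4.88 and 5.01 on the log2 scale, Postn 3.38 and 3.54, Tnc 3.44 and 3.64, Smoc2 (1392965_a_at) 3.54 and 3.74, Tgfbi 2.72 and 2.88, and Thbs2 1.71 and 1.85. Subtracting array medians moved every log2 fold change by -0.10 and calls over the array to 839 higher and 194 lower, against 961 and 123; Sparc at 1367562_at then turned to -0.034 (adjusted p = 0.664). Taking genes by the mean of their probe sets gave 6 of 9 members called higher, with Smoc2 added. Its mean includes 1392965_a_at, its only called probe set. The share of all genes called in this way was not counted.

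At an adjusted p under 0.05 with no fold threshold, genes higher numbered 17 among the other matricellular genes, 11 receptors, 9 enzymes, 6 TGF-beta genes, 8 fibroblast, 1 leukocyte and 3 endothelial markers. Genes lower were 1 member (Sparcl1, 1 probe set), 5 other matricellular genes, 4 receptors, 2 enzymes, 5 TGF-beta genes, 2 intestinal, 2 fibroblast and 4 leukocyte markers. At 1.5-fold, 8 receptors, 4 TGF-beta genes, 1 leukocyte and 2 endothelial markers, 10 other matricellular genes, 6 enzymes and 7 fibroblast markers were higher, and 2 other matricellular genes, 1 receptor, 1 TGF-beta gene, 1 intestinal and 1 fibroblast marker were lower. A filter at the 60th percentile left 1 intestinal marker, 5 other matricellular genes, 4 receptors and 4 fibroblast markers called higher, because Krt19, Cdx2, Edil3, Emilin1, Tlr4 and Lum were then not tested. Measured were 36 other matricellular genes, 26 receptors, 27 enzymes, 22 TGF-beta genes, 19 intestinal, 16 fibroblast, 14 leukocyte and 10 endothelial markers. Counted in probe sets over the array, the first setting gave 4607 higher and 6054 lower of 31042, or 14.8% and 19.5%. At 1.5-fold they were 1950 and 731 of 31042, and with the filter 556 and 100 of 13097.

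With the replicate number as a block, 6 member probe sets and 5 member genes were higher and 962 probe sets higher over the array; no call of a member or list count changed. The paired differences then had an exact p of 0.25, the smallest possible with 3 pairs. The comparison of Thbs2 with Thbs1 was not run, as Thbs1 was not analysed here. Signal over background limits Sparcl1, Cd36 and the control values of Smoc2 (1392965_a_at), Serpine2, Cacna2d1, Tlr4, Lgr5, Lum and Edil3, which lay under the 25th percentile of the arrays.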
